A study of Homo sapiens with 12 samples.

Results

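The genes described here encode the proteasome: the subunits of its 20S core and 19S cap, the immunoproteasome subunits, the activators and the inhibitor that bind the core, and the factors that assemble it. They were chosen by symbol, as protein-coding genes beginning with PSMA to PSMG and a number, together with POMP, which gave 50 of the 63677 gene identifiers in the table. Of these, PSMC3IP and PSME3IP1 share only the start of the symbol and were set apart, which left 48 proteasome genes. The 20S beta subunit gene PSMB3 was not analysed here.

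The study measured polyA RNA in HCT116, a human colorectal cancer cell line, in 4 groups of 3 libraries. Every group carried a construct induced with doxycycline (1 ug/ul by the labels, given 48 before extraction with no time unit), so the controls received the drug too. The groups were mCherry, a fluorescent protein used as the control; CR3, which the title of the series describes as a peptide that perturbs condensates; and the constructs labelled scramble and reverse, called variants of CR3 in the design text. The cells are described as clones, and neither the number of clones nor separate cultures are given, so construct and clone cannot be told apart and p-values measure only the spread between these libraries.

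The proteasome degrades proteins that carry ubiquitin chains. Its 20S core is a barrel of stacked rings, with alpha subunits outside, which gate the entrance, and beta subunits inside, some of which cut the peptide bonds. The 19S cap sits on an end of the barrel, where its base of ATPases unfolds the substrate and its lid removes the ubiquitin. Interferon and immune cells bring in alternative catalytic subunits, which form the immunoproteasome and favour peptides for antigen presentation. When proteasome activity falls short, the transcription factor NRF1 (gene NFE2L1) raises most subunit genes through antioxidant response elements in their promoters.

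The promoter windows below are printed because they hold a match to the core of that element, TGACNNNGC on either strand, within 250 bases before the gene's start, and because together they span the alpha ring, both parts of the cap, an activator and an assembly factor. Each run reads 5′ to 3′ on the gene's strand, from RefSeq on GRCh38.p14, and capitals mark the match, which in PSMC5 lies on the opposite strand.
PSMA4, chr15:78540635-78540693, plus strand: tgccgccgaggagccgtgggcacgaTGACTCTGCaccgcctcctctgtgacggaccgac
PSMC5, chr17:63827639-63827697, plus strand: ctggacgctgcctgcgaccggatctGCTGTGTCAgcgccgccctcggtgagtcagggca
PSMD3, chr17:39980745-39980803, plus strand: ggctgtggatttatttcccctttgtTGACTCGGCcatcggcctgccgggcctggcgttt
PSMD12, chr17:67366709-67366767, minus strand: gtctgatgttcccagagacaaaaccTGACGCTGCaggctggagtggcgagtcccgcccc
PSMG2, chr18:12658674-12658732, plus strand: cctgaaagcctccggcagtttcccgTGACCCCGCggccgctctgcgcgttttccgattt
PSME1, chr14:24136083-24136141, plus strand: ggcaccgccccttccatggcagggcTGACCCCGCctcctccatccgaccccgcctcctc

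Promoter windows, from 250 before the start to 50 after it, were in the sequence table for 42 of the 48 genes. PSMA7, PSMB1, PSMB6, PSMB7, PSMD4 and PSMG3 had no entry. The element core was found in 14 of the 42 genes (33.3%), against 16.1% of all 27305 genes with a window. Counted by window, since some genes have several, it was in 27.5% of the proteasome windows and 13.3% of all windows. The CCAAT box, searched as CCAAT on both strands, was in 19 of the 42 genes (45.2%) and in 39.7% of all genes. Among the tested genes, the median log2 fold change in CR3 against mCherry was -0.16 for the 14 genes with an element core and -0.15 for the 26 without it. A match describes the letters of a window and is not evidence that a factor binds there.

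Levels were expressed as normalized reads, the deposited reads per gene after division by the library's own size factor, and were compared between genes only per kilobase of exon. Library totals ran from 17431466 to 23566057 reads. Counting error weighed most on the 3 immunoproteasome genes, with 6 to 129 reads per library, and on PSMA8 and PSMB11, which were close to absent. PSMA8, an alpha subunit of the testis, had 0 to 3 reads per library, with a normalized level of 0.841 in mCherry replicate 2, 2.63 in CR3 replicate 2 and 0 in the other libraries. PSMB11, the catalytic subunit of the thymus, stood at 0, 2.52 and 0 in the mCherry libraries, 0.934, 1.75 and 0 in CR3, 0, 0.935 and 0 in scramble and 0, 1.02 and 0 in reverse. Neither was tested.

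Per kilobase the constitutive beta subunits were the most abundant role, with a median of 4595 normalized reads per kilobase over the 12 libraries, from 997 for PSMB2 to 6577 for PSMB4. The cap genes followed, with medians of 1802 for the ATPases (384 for PSMC1 to 3487 for PSMC5) and 1918 for the non-ATPase subunits (1132 for PSMD6 to 3443 for PSMD2). The activators and the inhibitor PSMF1 had a median of 1013. The alpha ring had a median of 734 and the widest range among the structural roles, from 179 for PSMA2 to 3238 for PSMA7, although its subunits are built into the ring in equal number. Another annotated gene overlaps PSMA2 and PSMA6 on the same strand (ENSG00000256646 and ENSG00000258790). The same holds for PSMA1 and PSMA3 in this ring, and for genes of other roles, among them PSMB10, PSMC2, PSMD1, PSMD9, PSMD14 and PSMF1. Exon length was taken from an annotation that need not be the authors', so the levels of these genes are uncertain. The immunoproteasome genes had a median of 27.4, far below the constitutive beta ring.

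**Figure D1:**
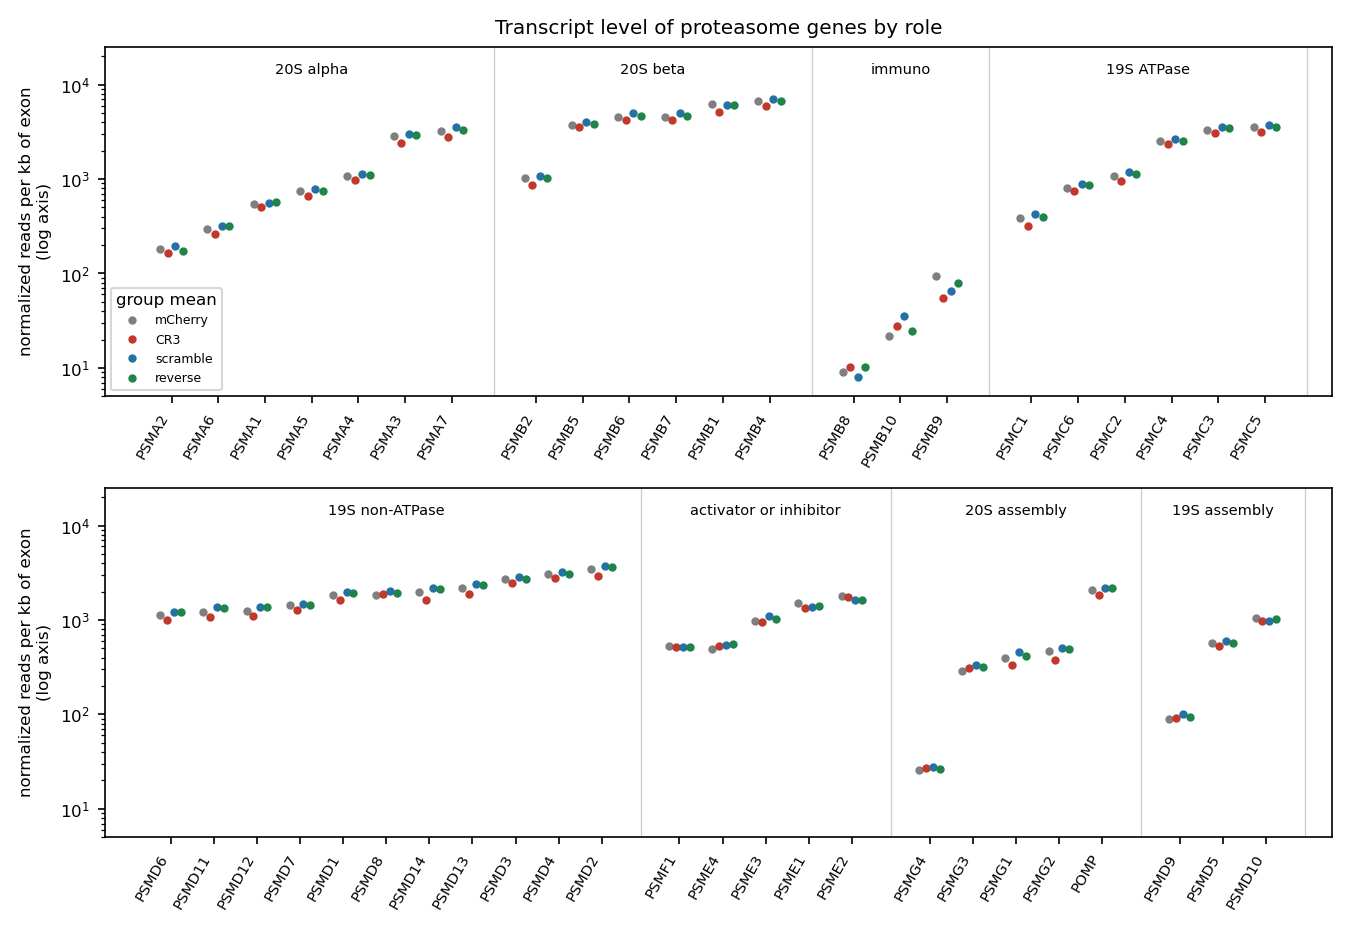
Mean normalized reads per kilobase of exon (log axis) of each proteasome gene in the mCherry, CR3, scramble and reverse groups (3 libraries each), ordered within its role. PSMA8 and PSMB11, which were close to absent, are not drawn. The 3 immunoproteasome genes and PSMG4 sit lowest, and most constitutive beta subunits sit highest, from 997 for PSMB2 to 6577 for PSMB4 over all libraries.

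The subunits of the core and the cap were lower in CR3 than in the other groups, by small amounts that most subunits shared. Against mCherry, 23 of the 46 tested genes were lower and 0 were higher (limma, Benjamini-Hochberg adjusted p under 0.05), where 14.6% of all 15427 tested genes were lower and 14.1% higher. The median log2 fold change of the 46 genes was -0.15, and that of all genes 0.0020. Against scramble 33 were lower and 0 higher, with a median of -0.24, where 18.7% of all genes were lower and 19.1% higher. Against reverse 29 were lower and 1, PSME2, was higher, with a median of -0.17, where 16.7% and 16.9% of all genes were. At an unadjusted p under 0.05, 30 were lower and 0 higher against mCherry (19.5% and 18.98% of all genes), 35 and 1 against scramble (22.6% and 23.7%), and 33 and 1 against reverse (21.4% and 21.8%). In all 3 comparisons, which share the CR3 libraries, 22 genes were lower and 0 higher, where 11.2% of all genes were lower and 11.0% higher. The 3 CR3 libraries lay below all 3 mCherry libraries in 26 of the 46 genes and above them in 1, where 18.8% of all genes did in each direction. Against scramble this held for 36 and 1 genes (24.4% and 25.3% of all genes) and against reverse for 31 and 1 (22.0% and 22.5%). In bulk RNA, less RNA of a gene per cell and fewer cells that make it cannot be told apart.

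These counts depended on how libraries were scaled. Scaling by library size in place of the deposited size factors moved the median log2 fold change of all genes against mCherry, scramble and reverse from 0.0020, 0.013 and 0.0072 to 0.09, 0.10 and 0.09, and left 9 proteasome genes lower and 2 higher against mCherry, 26 lower and 1 higher against scramble, and 16 lower and 1 higher against reverse. Of all genes, 8.20% were then lower and 23.1% higher against mCherry, 11.6% and 29.2% against scramble, and 10.0% and 26.3% against reverse. The proteasome medians were then -0.06, -0.15 and -0.09. Such scaling moves all genes of a library by one factor, so the gap between the proteasome median and that of all genes hardly depends on it. The count against mCherry also rested on CR3 replicate 3: without it, 14 genes were lower against mCherry and 13 in all 3 comparisons. Of all genes, 10.8% were then lower against mCherry, and the share lower in all 3 comparisons is not given here. Abundant genes were more often lower in general. Of the 5024 genes averaging at least 1000 normalized reads, 1381 were lower against mCherry and 449 higher, while of the 36 proteasome genes at that level 20 were lower and 0 higher.

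Other cell type markers moved with the CR3 libraries. The summed level of 10 colorectal epithelium markers was 50365 to 58442 normalized reads in CR3 and 61092 to 69498 in the other groups. Of the 8 tested, KRT19, CLDN4, KRT18, EPCAM and KRT8 were lower in all 3 comparisons. The other 3 were not called in any, with a highest log2 fold change of 0.11 against mCherry and 0.08 against scramble. The 8 markers of embryonic kidney lines and neuron-like cells summed to 2193 to 2388 in CR3 and 754 to 909.8 elsewhere. NEFM, CDH2, IRS4, UCHL1 and INA were higher, and BEX1 was near 0. Of the 7 tested, 5 were higher against mCherry, 6 against scramble and 6 against reverse, with 5 higher in all 3 comparisons. The 7 mesenchyme markers summed to 1611 to 1871 in CR3 and 733 to 1009 elsewhere, mostly through VIM, with COL1A2 and DCN near 0. Of the 2 mesenchyme markers tested, 1 was higher against mCherry, 2 against scramble and 2 against reverse. Of the 7 blood markers, summed at 1295 to 1418 in CR3 and 4.27 to 13.4 elsewhere, LAPTM5 carried nearly all, and PTPRC was at 0 in all 12 libraries. Their part in the proteasome result was not tested.

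**Figure D2:**
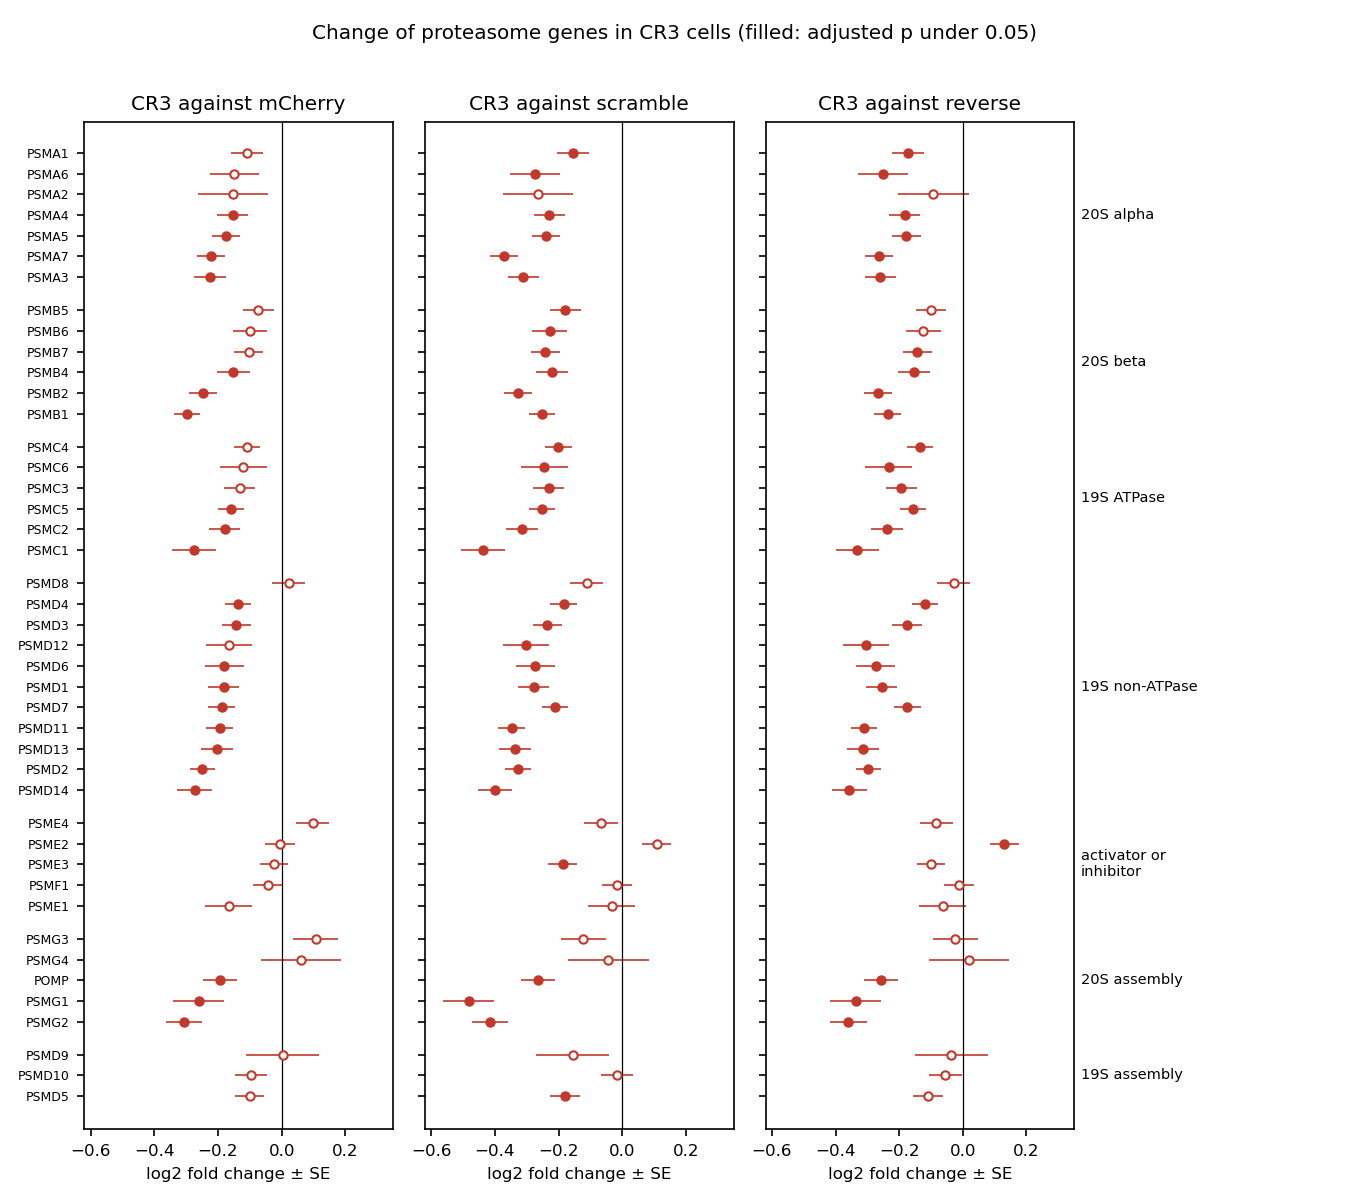
Log2 fold change ± SE (limma) of the tested proteasome genes outside the immunoproteasome in CR3 against mCherry, scramble and reverse, by role, with filled points for an adjusted p under 0.05. Nearly all core and cap subunits lie left of 0 in each panel, PSMD8 lies close to 0 against mCherry, and the activators lie on both sides.

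In the alpha ring, the gated outer ring of the core, 4 of 7 genes were lower against mCherry (PSMA3, PSMA4, PSMA5 and PSMA7), 6 against scramble and 6 against reverse. PSMA3 (ENSG00000100567, chr14:58244831-58272012, plus strand), placed by GENCODE 29 on GRCh38, had the largest decrease against mCherry in this ring, at 2632, 2731 and 2902 in the mCherry libraries, 2288, 2418 and 2362 in CR3, 2847, 2945 and 2974 in scramble and 2932, 2858 and 2672 in reverse. All 3 CR3 libraries lay below every other library. Its log2 fold changes (on the scale of log2 of normalized reads + 1, with SE) were -0.22 ± 0.05 against mCherry, -0.31 ± 0.05 against scramble and -0.26 ± 0.05 against reverse (adjusted p = 0.0022, 8.6e-05 and 5.6e-04). PSMA7 changed by -0.22 ± 0.04 against mCherry, -0.37 ± 0.04 against scramble and -0.26 ± 0.04 against reverse (adjusted p = 9.6e-04, 3.8e-06 and 1.7e-04). PSMA1 had the smallest decrease against mCherry, at 1203, 1236 and 1236 in the mCherry libraries, 1105, 1191 and 1117 in CR3, 1312, 1217 and 1270.2 in scramble and 1276, 1308 and 1258 in reverse. Its CR3 libraries were again the lowest, but by a narrow gap, with -0.11 ± 0.05 against mCherry, -0.15 ± 0.05 against scramble and -0.17 ± 0.05 against reverse (adjusted p = 0.13, 0.023 and 0.015). The calls for PSMA1 against scramble and reverse were lost without CR3 replicate 1 (adjusted p = 0.071 and 0.050), without CR3 replicate 3 (0.072 and 0.052), without scramble replicate 1 or 3 (0.10 and 0.062, against scramble) and without reverse replicate 2 (0.054, against reverse). Under library size scaling they were lost as well (0.33 and 0.20), and under upper quartile scaling that against scramble was (0.072).

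Within the beta ring the catalytic and the structural subunits differed in how many passed the test against mCherry. The 3 non-catalytic genes analysed, PSMB1, PSMB2 and PSMB4, were lower in each comparison, by -0.30, -0.25 and -0.15 against mCherry. PSMB3, also non-catalytic, was not among them. None of the 3 catalytic genes passed against mCherry, with PSMB5 (chymotrypsin-like activity) at -0.07, PSMB6 (caspase-like) at -0.10 and PSMB7 (trypsin-like) at -0.10. Against scramble all 3 catalytic genes were lower, and against reverse PSMB7 was. Whether the catalytic genes differ from the others was not tested. PSMB1 (ENSG00000008018, chr6:170535117-170553341, minus strand) stood at 5865, 5896 and 5761 in the mCherry libraries, 4867, 4906 and 4489.6 in CR3, 5675, 5644 and 5655 in scramble and 5676, 5501 and 5612 in reverse. The CR3 libraries were the 3 lowest, clear of the narrow range of the other groups, with -0.30 ± 0.04 against mCherry, -0.25 ± 0.04 against scramble and -0.24 ± 0.04 against reverse (adjusted p = 3.2e-05, 1.3e-04 and 2.8e-04). PSMB5, the target of bortezomib, stood at 5379, 5661 and 5384 in the mCherry libraries, 5311, 5062 and 5242 in CR3, 5936, 5578 and 6172 in scramble and 5304, 5837 and 5602 in reverse. Its CR3 libraries lay just under the mCherry ones and overlapped those of reverse, and the differences were -0.07 ± 0.05 against mCherry, -0.18 ± 0.05 against scramble and -0.10 ± 0.05 against reverse (adjusted p = 0.29, 0.0073 and 0.12). The call against scramble was lost under library size scaling (adjusted p = 0.14).

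All 6 ATPases of the cap base were lower against scramble and reverse, and 3 (PSMC1, PSMC2 and PSMC5) against mCherry. PSMC1 (ENSG00000100764, chr14:90256495-90275429, plus strand) stood at 1614, 1608 and 1935 in the mCherry libraries, 1394, 1483 and 1369 in CR3, 1855, 1832 and 2066 in scramble and 1851, 1726 and 1765 in reverse. No CR3 library reached the lowest library of another group, although mCherry replicate 3 and scramble replicate 3 were well above their own groups. The differences were -0.28 ± 0.07 against mCherry, -0.44 ± 0.07 against scramble and -0.33 ± 0.07 against reverse (adjusted p = 0.006, 8.5e-05 and 0.0012). PSMC1 has 13 annotated pseudogenes, whose reads came to 1.97% of its own. PSMC4 had the smallest difference against mCherry, at 4042, 4021 and 3922 in the mCherry libraries, 3801, 3744 and 3562 in CR3, 4201, 4219.9 and 4338 in scramble and 3944, 4125 and 4116 in reverse. Its CR3 libraries were the 3 lowest, with -0.11 ± 0.04 against mCherry, -0.20 ± 0.04 against scramble and -0.13 ± 0.04 against reverse (adjusted p = 0.055, 9.7e-04 and 0.018). Without mCherry replicate 3 or CR3 replicate 1 the difference from mCherry passed (0.040 and 0.042). The call against reverse was lost under library size scaling (0.38), under upper quartile scaling (0.052), and without CR3 replicate 3 (0.088), reverse replicate 2 (0.063) or reverse replicate 3 (0.062).

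Of the 11 non-ATPase subunits, 9 were lower against mCherry, 10 against scramble and 10 against reverse. The ubiquitin receptors and scaffolds PSMD1, PSMD2 and PSMD4 were lower in all 3 comparisons. PSMD2, a scaffold of the cap, averaged 12455 ± 308 in mCherry (SD, n = 3), 10474 ± 71 in CR3, 13146 ± 343 in scramble and 12873 ± 252 in reverse. Of the 8 lid genes, 6 were lower against mCherry and 7 against each of scramble and reverse. PSMD14 (ENSG00000115233, chr2:161308038-161411717, plus strand), which encodes the lid's deubiquitinase, had the largest decrease of the lid, at 3712, 3809.5 and 4119 in the mCherry libraries, 3142, 3404 and 3086 in CR3, 4376, 4042 and 4288 in scramble and 4257, 4199 and 3873 in reverse. Its CR3 libraries lay below every other library, with -0.27 ± 0.05 against mCherry, -0.40 ± 0.05 against scramble and -0.36 ± 0.05 against reverse (adjusted p = 0.0011, 1.9e-05 and 7.4e-05). PSMD8, also a lid subunit, stood apart at 5274, 5044 and 4605 in the mCherry libraries, 5174, 4846 and 5116 in CR3, 5347, 5295 and 5717 in scramble and 4975, 5298 and 5163 in reverse. Its CR3 libraries overlapped those of mCherry and reverse and lay below scramble, and no difference passed, with 0.02 ± 0.05 against mCherry, -0.11 ± 0.05 against scramble and -0.03 ± 0.05 against reverse (adjusted p = 0.79, 0.1 and 0.72). Without mCherry replicate 3, whose PSMD8 level was the lowest of all, the difference from scramble passed at an adjusted p of 0.044.

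Set relative to each gene's own mean over the 12 libraries, the 30 core and cap genes had a median of 86.8%, 92.1% and 88.4% in CR3 replicates 1, 2 and 3. The medians were 98.8%, 100.5% and 100.9% in the mCherry libraries, 106.9%, 104.8% and 109.8% in scramble and 103.9%, 105.2% and 101.3% in reverse. The CR3 library medians were thus the 3 lowest, those of mCherry came next, and those of reverse and scramble overlapped. In CR3 the 13 core genes had library medians of 88.4%, 91.4% and 88.8%, and the 17 cap genes 86.0%, 92.4% and 86.8%, and whether core and cap differ was not tested. In CR3, 29, 29 and 30 of the 30 genes were below their own mean, which includes the CR3 libraries. The counts were 19, 13 and 13 in the mCherry libraries, 0, 1 and 0 in scramble and 9, 2 and 8 in reverse. Like counts over all genes are not given here. Of the 5024 genes averaging at least 1000 normalized reads, 3137 had a negative log2 fold change in CR3 against mCherry.

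**Figure D3:**
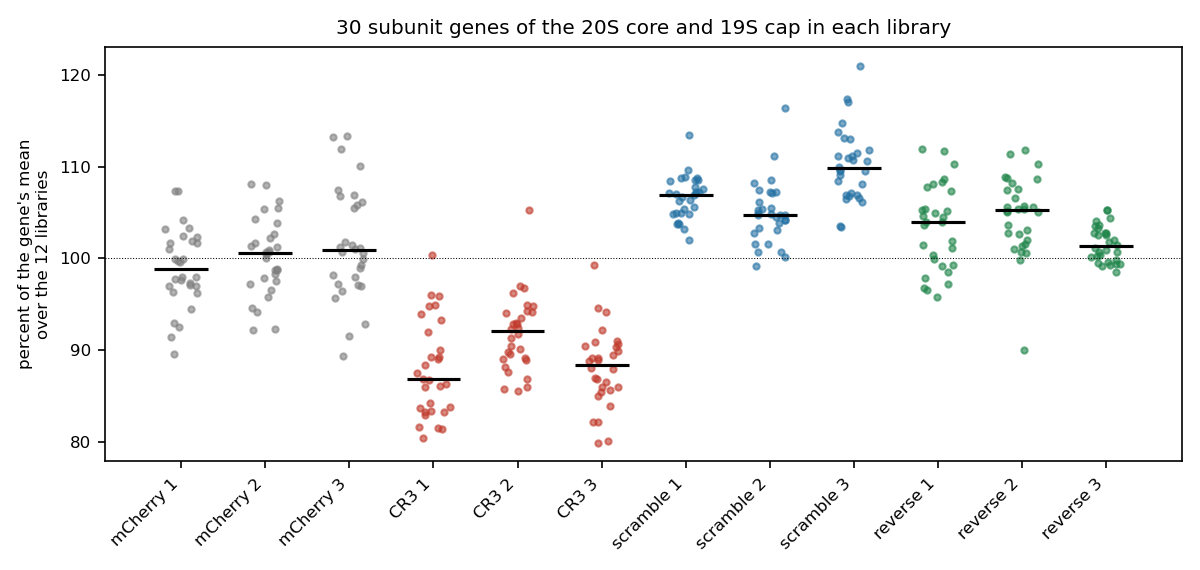
Level of each of the 30 core and cap genes in each library, as a percent of that gene's mean over the 12 libraries, with the library median as a black line. The 3 CR3 libraries have medians of 86.8% to 92.1%, and the others 98.8% to 109.8%.

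Scramble was the group with the highest proteasome levels. Against mCherry, 0 of the 46 genes were lower and 0 higher at the adjusted threshold (limma), where 0.797% of all genes were called in each direction. At an unadjusted p under 0.05, 17 were higher and 1 lower, while 7.55% of all genes were higher and 7.07% lower. The smallest adjusted p was 0.078, for PSMD11, and the median was 0.10. Reverse against mCherry gave 0 calls in either direction (0.402% of all genes lower and 0.253% higher), 3 higher and 1 lower at an unadjusted p (4.80% and 4.79% of all genes), and a median of 0.04. Reverse against scramble gave 0 calls (0.188% of all genes lower and 0.279% higher), 0 higher and 4 lower at an unadjusted p (4.06% and 3.16% of all genes), and a median of -0.05. Without mCherry replicate 3, 4 genes were higher in scramble, among them PSMC1 (0.25, adjusted p = 0.027) and PSME4 (0.21, adjusted p = 0.029). In reverse 1 was then higher, PSME4 (0.23, adjusted p = 0.035). The share of all genes called in that fit is not given here, so these counts cannot be set against it.

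The whole set of 48 genes took 0.735% to 0.760% of all reads in the CR3 libraries, 0.776% to 0.781% in mCherry, 0.789% to 0.814% in reverse and 0.818% to 0.841% in scramble. These shares need no size factor, and no CR3 library overlapped another group. By role, the CR3 shares lay below all others for the alpha ring, the constitutive beta ring, the ATPases and the non-ATPase subunits, and overlapped another group for the immunoproteasome and both sets of assembly genes. As a share, the activators and the inhibitor went the other way, at 0.0778% to 0.0789% in CR3 and 0.0739% to 0.0771% elsewhere. A share of all reads amounts to library size scaling, under which the median log2 fold change of all genes was 0.09 to 0.10 in the CR3 comparisons. In normalized reads this role summed to 14421 to 14677 in CR3 and 14632 to 14760 in mCherry, which overlapped. Scramble stood at 15057 to 15400 and reverse at 14667 to 15202.

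The immunoproteasome subunits, which replace PSMB5, PSMB6 and PSMB7 when interferon acts, were near the bottom of the measured range. PSMB8 (ENSG00000204264, chr6:32840717-32844703, minus strand) stood at 14.6, 13.5 and 13.9 in the mCherry libraries, 19.6, 14.9 and 12.8 in CR3, 8.63, 23.4 and 5.26 in scramble and 21.9, 9.2 and 16.2 in reverse. PSMB10 (ENSG00000205220, chr16:67934502-67937087, minus strand) stood at 24, 32 and 24.5 in the mCherry libraries, 41.1, 28.9 and 30.8 in CR3, 38.4, 37.4 and 53.5 in scramble and 28.1, 30.7 and 31.5 in reverse. The CR3 libraries of PSMB8 and PSMB10 overlapped those of every group, and neither passed a comparison, with PSMB8 at 0.14 ± 0.40 against mCherry, 0.54 ± 0.40 against scramble and 0.06 ± 0.40 against reverse (adjusted p = 0.83, 0.32 and 0.93), and PSMB10 at 0.31 ± 0.21 against mCherry, -0.35 ± 0.21 against scramble and 0.14 ± 0.21 against reverse (adjusted p = 0.31, 0.22 and 0.66). Without scramble replicate 2, PSMB8 was higher in CR3 than in scramble, by 1.09 (adjusted p = 0.025).

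PSMB9 (ENSG00000240065, chr6:32844136-32859585, plus strand) stood at 89.8, 109 and 62.9 in the mCherry libraries, 67.3, 29.8 and 55.3 in CR3, 55.6, 54.2 and 68.4 in scramble and 71.9, 66.5 and 82.8 in reverse. It was the only immunoproteasome gene of the 3 to pass a comparison, against mCherry, and its libraries overlapped there, with CR3 replicate 2 far below the others and mCherry replicate 2 the highest. The differences were -0.81 ± 0.26 against mCherry, -0.29 ± 0.26 against scramble and -0.60 ± 0.26 against reverse (adjusted p = 0.025, 0.4 and 0.081). The call against mCherry was lost without mCherry replicate 1 (adjusted p = 0.070), mCherry replicate 2 (0.11) or CR3 replicate 2 (0.14), with only the 2 groups in the fit (0.091), and without the mean-variance trend (0.063). Without CR3 replicate 1, PSMB9 was also lower against reverse (-0.84, adjusted p = 0.028). In the annotation used for gene positions, PSMB8 and PSMB9 start 567 bases apart in opposite directions, and their bodies overlap. The RefSeq promoter window of PSMB9 lies at chr6:32853942-32854241, inside that annotated body. The RefSeq start of PSMB9 is therefore much farther from the annotated start of PSMB8. In the annotation of gene positions, an antisense gene, PSMB8-AS1, overlaps both PSMB8 and PSMB9, and TAP1 overlaps PSMB9. Without the strand setting of the counting, some reads of PSMB8 and PSMB9 therefore cannot be assigned.

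As a share of the reads of each exchangeable pair, which needs no scaling, PSMB8 took 0.255% ± 0.017 (SD, n = 3) of PSMB8 plus PSMB5 in mCherry, 0.301% ± 0.063 in CR3, 0.216% ± 0.18 in scramble and 0.285% ± 0.13 in reverse. PSMB9 took 2.14% ± 0.46, 1.35% ± 0.47, 1.35% ± 0.11 and 1.80% ± 0.25 of PSMB9 plus PSMB6 in the same order. PSMB10 took 0.602% ± 0.11, 0.813% ± 0.20, 0.871% ± 0.16 and 0.655% ± 0.026 of PSMB10 plus PSMB7. The log2 ratio within each pair was compared between CR3 and each other group in 9 two-sided exact permutation tests, where 3 against 3 libraries cannot give a p below 0.10. The smallest was 0.10 (adjusted 0.54), for PSMB10 over PSMB7 against reverse, where CR3 was higher by 0.28. For PSMB9 over PSMB6 the difference of CR3 from mCherry was -0.71 (exact p = 0.20, adjusted 0.54).

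**Figure D4:**
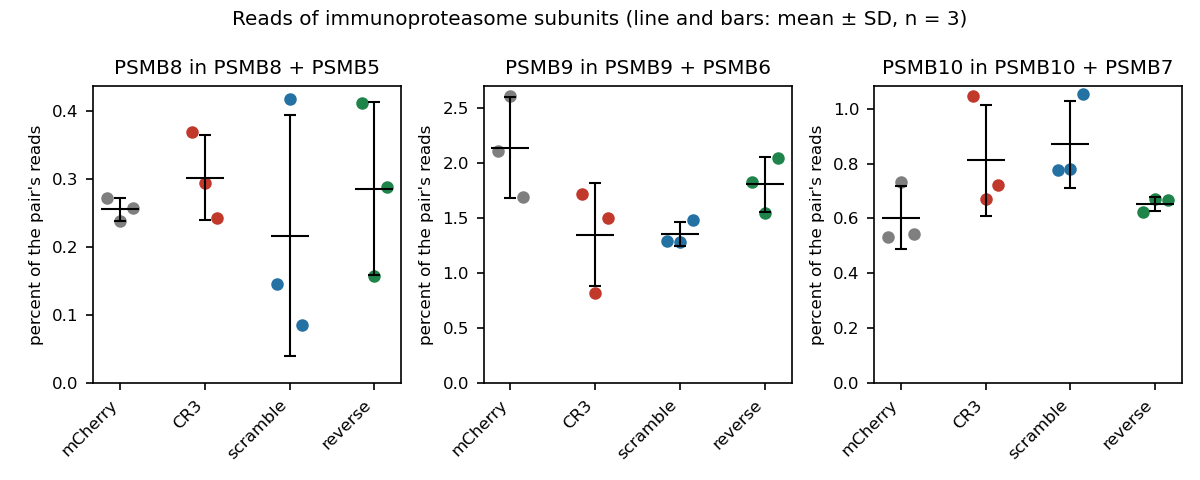
Reads of PSMB8, PSMB9 and PSMB10 as a percent of the reads of the gene plus its constitutive counterpart, per library (points) with mean ± SD (n = 3). Shares lie between 0.0851% and 2.61%, and the CR3 points overlap those of every other group except for PSMB10 against reverse, where they lie just above.

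Of the 5 activator and inhibitor genes, 4 had a negative log2 fold change in each CR3 comparison. Of all 15427 genes, 7644, 7431 and 7548 had one against mCherry, scramble and reverse. In this role 0 were called against mCherry, where 14.6% of all genes were lower and 14.1% higher. Against scramble 1 (PSME3) was lower (18.7% of all genes), and against reverse 1 (PSME2) was higher (16.9%). A count out of 5 genes is too small to set apart from these shares. The medians were -0.02, -0.03 and -0.06. Whether this role differs from the core and cap was not tested. PSME1 and PSME2 form the interferon-inducible activator PA28. PSME1 stood at 1882, 1983 and 1646 in the mCherry libraries, 1834, 1529.8 and 1549 in CR3, 1609, 1653 and 1749.8 in scramble and 1727, 1618 and 1776 in reverse. Its libraries overlapped in each comparison, with -0.17 ± 0.07 against mCherry, -0.03 ± 0.07 against scramble and -0.06 ± 0.07 against reverse (adjusted p = 0.11, 0.76 and 0.55). Without mCherry replicate 3 or CR3 replicate 1 it was lower against mCherry (-0.24 and -0.25, adjusted p = 0.015 and 0.018). PSME2, chosen for mention after its values were seen, averaged 2641 ± 23.2 in mCherry, 2634 ± 129 in CR3, 2441 ± 83.7 in scramble and 2404 ± 53.6 in reverse (SD, n = 3), and changed by -0.0049 ± 0.05 against mCherry, 0.11 ± 0.05 against scramble and 0.13 ± 0.05 against reverse (adjusted p = 0.95, 0.072 and 0.037). That call was lost without CR3 replicate 1, reverse replicate 1 or reverse replicate 3, with only the groups compared in the fit, without the trend, with the replicate block, and with no read filter beyond 1 read.

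PSME4, which encodes the activator PA200, stood at 3369, 3360.4 and 3713 in the mCherry libraries, 3441, 3951 and 3786 in CR3, 3832, 3889 and 3969 in scramble and 3988, 3913 and 3923 in reverse. Its CR3 libraries overlapped every group and no difference passed, with 0.10 ± 0.05 against mCherry, -0.07 ± 0.05 against scramble and -0.08 ± 0.05 against reverse (adjusted p = 0.19, 0.34 and 0.24). It was higher than in mCherry under library size scaling (0.19, adjusted p = 0.014), without mCherry replicate 3 (0.14, adjusted p = 0.040) and without CR3 replicate 1 (0.15, adjusted p = 0.034). PSME3, the nuclear activator PA28-gamma, changed by -0.02 ± 0.04 against mCherry, -0.19 ± 0.04 against scramble and -0.10 ± 0.04 against reverse (adjusted p = 0.74, 0.003 and 0.092). PSMF1, the inhibitor PI31, was nearly level, at -0.04 ± 0.05 against mCherry, -0.02 ± 0.05 against scramble and -0.01 ± 0.05 against reverse (adjusted p = 0.55, 0.8 and 0.87).

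Among the 5 genes for assembly of the core, POMP, PSMG1 and PSMG2 were lower in all 3 comparisons, and PSMG3 and PSMG4 were not called in any. POMP is the maturation factor of the beta ring, and the PSMG proteins act as pairs of chaperones of the alpha ring, PSMG1 with PSMG2 and PSMG3 with PSMG4. PSMG2 (ENSG00000128789, chr18:12658043-12725740, plus strand) stood at 937, 898 and 939 in the mCherry libraries, 731, 778 and 733 in CR3, 1025, 997 and 968 in scramble and 948, 1018 and 913 in reverse. The CR3 libraries were clear of all others, with -0.31 ± 0.06 against mCherry, -0.42 ± 0.06 against scramble and -0.36 ± 0.06 against reverse (adjusted p = 5.9e-04, 2.1e-05 and 1.1e-04). Its partner PSMG1 changed by -0.26 ± 0.08 against mCherry, -0.48 ± 0.08 against scramble and -0.34 ± 0.08 against reverse (adjusted p = 0.021, 1.3e-04 and 0.0034), and POMP by -0.19 ± 0.05 against mCherry, -0.26 ± 0.05 against scramble and -0.26 ± 0.05 against reverse (adjusted p = 0.011, 8.7e-04 and 0.0012). PSMG3 stood at 574, 578 and 541 in the mCherry libraries, 605, 585 and 633 in CR3, 669, 653 and 662 in scramble and 565, 678 and 617 in reverse. Its CR3 libraries lay above mCherry, below scramble and among those of reverse, with 0.11 ± 0.07 against mCherry, -0.12 ± 0.07 against scramble and -0.02 ± 0.07 against reverse (adjusted p = 0.29, 0.19 and 0.82). Under library size scaling it was higher than in mCherry (0.20, adjusted p = 0.044). PSMG4 changed by 0.06 ± 0.13 against mCherry, -0.04 ± 0.13 against scramble and 0.02 ± 0.13 against reverse (adjusted p = 0.76, 0.82 and 0.92).

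The 3 chaperones of the cap base passed once, PSMD5 against scramble, where 18.7% of all genes were lower. PSMD5 stood at 1937, 1855 and 2061 in the mCherry libraries, 1808, 1819 and 1826 in CR3, 2015, 2108 and 2057 in scramble and 1992, 1944 and 1949 in reverse. Its CR3 libraries were the 3 lowest and close together, with -0.10 ± 0.05 against mCherry, -0.18 ± 0.05 against scramble and -0.11 ± 0.05 against reverse (adjusted p = 0.12, 0.0054 and 0.078). The call against scramble was lost under library size scaling (adjusted p = 0.15), and without mCherry replicate 3 the difference from reverse passed (0.039). PSMD9 stood at 242, 249 and 262 in the mCherry libraries, 254, 269 and 233 in CR3, 276, 257 and 310.3 in scramble and 217, 274 and 289.6 in reverse. Its groups overlapped, with 0.0028 ± 0.11 against mCherry, -0.16 ± 0.11 against scramble and -0.04 ± 0.11 against reverse (adjusted p = 0.99, 0.31 and 0.84). PSMD10, the oncoprotein gankyrin, changed by -0.10 ± 0.05 against mCherry, -0.02 ± 0.05 against scramble and -0.05 ± 0.05 against reverse (adjusted p = 0.17, 0.84 and 0.44). The other genes that share the symbol stem, PSMC3IP, a recombination cofactor, and PSME3IP1, a partner of PSME3, changed by -0.07 ± 0.08 and -0.14 ± 0.06 against mCherry and were lower against scramble, and PSME3IP1 also against reverse.

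Several proteasome genes share a short promoter stretch with a neighbour read in the opposite direction. For 11 of them a tested protein-coding gene outside the family starts within 1000 bases. Of these neighbours, 0 were lower and 3 higher in CR3 than in mCherry, where 14.6% of all genes were lower and 14.1% higher. Against scramble 3 were lower and 2 higher (18.7% and 19.1% of all genes), and against reverse 2 and 3 (16.7% and 16.9%). TUBB2B, a beta-tubulin gene that starts 327 bases from PSMG4, had the largest differences, higher by 3.32, 3.29 and 3.44 (adjusted p = 8.7e-09, 8.0e-09 and 5.4e-09) where PSMG4 was not called. SPIRE1, an actin nucleator whose start lies 91 bases from that of PSMG2, was higher by 0.15, 0.26 and 0.18 (adjusted p = 0.028, 5.8e-04 and 0.0091) where PSMG2 was lower. ATG4A, an autophagy protease that starts 50 bases from PSMD10, was higher by 0.36 against mCherry and 0.32 against reverse (adjusted p = 0.0025 and 0.0049). The neighbour of PSMA2, MRPL32, with starts 23 bases apart, changed by -0.26 against scramble and -0.20 against reverse (adjusted p = 0.0051 and 0.032). PSMA2 itself changed by -0.26 ± 0.11 against scramble and -0.09 ± 0.11 against reverse, and neither passed. TBP beside PSMB1 was lower against scramble (-0.24, adjusted p = 0.017), and DNAJC2 beside PSMC2 was lower against scramble and reverse (-0.29 and -0.25, adjusted p = 0.016 and 0.045), as were PSMB1 and PSMC2. The neighbours of PSMD13 (SIRT3) and PSMA7 (SS18L1) passed in no comparison.

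Genes that work with the proteasome were read from lists, whose counts stand against 14.6%, 18.7% and 16.7% of all genes lower and 14.1%, 19.1% and 16.9% higher against mCherry, scramble and reverse. Of 12 other proteasome-bound proteins, 5 were lower and 1 higher against mCherry, 8 lower against scramble and 5 lower against reverse, with a median of -0.14 against mCherry. SEM1, the small lid subunit, was lower in all 3 comparisons (-0.33, -0.38 and -0.29), as was ZFAND5 (-0.28, -0.18 and -0.20), with a largest adjusted p of 3.4e-04 and 0.0044. UBLCP1, a phosphatase of the cap, was lower against mCherry and scramble (-0.22 and -0.19), and ECPAS was higher against mCherry alone (0.17, adjusted p = 0.026). Of 10 ubiquitin genes and shuttle factors, 4 were lower against mCherry and 0 higher, and 5 were lower and 1 higher against scramble and against reverse. Lower in all 3 comparisons were 4 (11.2% of all genes), among them RPS27A, a fusion of ubiquitin with a ribosomal protein (-0.28, -0.34 and -0.28), and the shuttle receptor RAD23B (-0.24, -0.25 and -0.24). The polyubiquitin gene UBB passed in no comparison, and the shuttle factor UBQLN2 was higher against scramble and reverse (0.14 and 0.16, adjusted p = 0.032 and 0.018).

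NRF1 is released from the endoplasmic reticulum and cut before it acts. Of the 11 genes of this route, 0 were lower and 2 higher against mCherry, 1 was lower against scramble and 1 against reverse, with a median of -0.0070 against mCherry. NFE2L1 itself averaged 10239.9 ± 341 normalized reads in mCherry, 10191 ± 396 in CR3, 10091 ± 333 in scramble and 9961 ± 252 in reverse (SD, n = 3), and passed in no comparison (adjusted p = 0.93 against mCherry). DDI2, the protease that cuts NRF1, was at 0.19 (adjusted p = 0.029) and MAFF, a partner on the promoter element, at 0.30 (adjusted p = 0.033) against mCherry, and neither passed against scramble or reverse. Of 11 antigen processing and interferon genes, 2 were higher against mCherry, 3 against scramble and 4 against reverse, while 0 were lower. HLA-C (0.20, 0.29 and 0.33) and HLA-B (0.22, 0.37 and 0.33) were higher in CR3 in all 3 comparisons, and NLRC5 against reverse (0.23). TAP1 and TAP2, the peptide transporter, passed in none. Of 10 genes of the COP9 signalosome, a complex homologous to the lid, 1 was lower against mCherry (COPS6, -0.15), 6 against scramble and 1 against reverse, with 0 higher.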

How the data were processed

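PolyA RNA was measured in 12 libraries of HCT116 cells, made with a stranded TruSeq kit per the labels' protocols and grouped by sample title. Per the submitters' processing notes, STAR, featureCounts, edgeR and DESeq2 were among the tools and GRCh38 was the build. For the strand setting and the annotation release, the sources used here give nothing. The deposited values are the authors' reads per gene after division by the library's own size factor, a unit read from the values, with the decimal mark lost from every value of 1 or more. Each was restored as a whole multiple of the worth of 1 read at the likeliest power of 10, and all 265152 non-zero values were whole multiples within 1e-07. The power was ambiguous in 1785 values (0.673%), and genes holding one were left out, none of them a proteasome gene. The power was chosen with group labels, and a gene that fell 8- to 10-fold in 1 group cannot be told from an unchanged one. On simulated data for CR3 against mCherry (15213 genes), 19 of 27 genes with a log2 fold change of -0.5 and 1 of 32 with -3 were recovered, with 7 false calls.

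Tests used limma 3.58.1 in R 4.3.3 on log2(normalized reads + 1), with the prior variance following the mean, over all 12 libraries, for genes with at least 10 reads in at least 3 libraries, called at a two-sided Benjamini-Hochberg adjusted p under 0.05 over all 15427 genes. Python 3.11.15 with scipy 1.17.1 served the rest. Annotation was GENCODE 29, which matched 52526 identifiers. Replicate libraries were not duplicates of each other (chi-square per degree of freedom between them 2.73 to 9.76). Values per library are given for the immunoproteasome genes, the genes with the lowest and highest fold change against mCherry in each role, and those near 0. In the lists, up to 4 genes by p against mCherry are named by rule, except for some that are not reported here. The other genes named were picked after their values were seen. The genes, lists and rules were chosen with earlier results of these data known. Other scalings, filters, pseudocounts, fits and left-out libraries were tried.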

Additional observations from a re-analysis of the deposited data

How the results depend on the processing

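Under library size scaling, 9 proteasome genes were lower and 2 higher in CR3 against mCherry (23 and 0 in the fit reported). Against scramble 1 was higher, against reverse 16 were lower, and 8 were lower in all 3 comparisons (22 as reported). Of all genes, 8.20% were then lower and 23.1% higher against mCherry, 29.2% were higher against scramble and 10.0% lower against reverse. The share of all genes lower in all 3 comparisons is not given for this or any other alternative. With upper quartile scaling 1 was higher against scramble (22.4% of all genes). With only the groups compared in the fit, 14 were lower against mCherry (10.2% of all genes) and 14 in all 3 comparisons. Against reverse 0 were then higher (15.9% of all genes). The gene higher against reverse was also lost (0 higher) with no filter beyond 1 read and without the mean-variance trend (9.87% and 15.4% of all genes higher). The cause was not tested. Leaving out each library gave 14 to 24 lower and 0 to 1 higher against mCherry, 31 to 34 and 0 to 1 against scramble, 23 to 31 and 0 to 1 against reverse, 13 to 23 lower in all 3 comparisons, and 0 to 4 higher in scramble and 0 to 1 in reverse against mCherry. Of all genes, 10.8% to 14.4% were then lower and 10.6% to 14.0% higher in CR3 against mCherry. Against scramble these shares were 15.3% to 20.5% and 15.4% to 21.0%, and against reverse 13.2% to 18.9% and 13.4% to 18.9%. No such share is given for the counts of scramble and of reverse against mCherry. The lowest counts, 14 and 13, came without CR3 replicate 3. The log2 ratios that changed sign ran from -0.20 to 0.46 for PSMB8 over PSMB5 against reverse, from -0.27 to 0.26 for PSMB9 over PSMB6 against scramble and from -0.30 to 0.039 for PSMB10 over PSMB7 against scramble. Of the values of single named genes under the alternatives, 2297 kept their side of the threshold, 22 lost and 15 gained a call, and 0 changed sign past it.

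Same-numbered libraries did not deviate together: none of 18 pairs correlated over 0.1 (r -0.13 to 0.066, median -0.022), and 1 of 12 libraries correlated best with its own number. With the replicate block, 22, 33 and 28 genes were lower against mCherry, scramble and reverse (13.2%, 17.6% and 15.4% of all genes). In all 3 comparisons 20 were lower, and 0 were higher against reverse (15.8% of all genes).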
